A study of Mus musculus with 4 samples.

Results

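The 8 genes Krt14, Krt5, Krt8, Krt18, Cdh1, Epcam, Trp63 and Shh mark dental epithelium, the sheet of oral ectoderm that lies against the tooth mesenchyme, and were taken by name from 22072 listed gene symbols as a measure of epithelium in captures of molar mesenchyme. The mutant libraries came from Bmp4f/f;Wnt1Cre mouse embryos and the control libraries from Bmp4f/+ embryos, all on a mixed background at embryonic day 13.5. In the mutant both Bmp4 alleles are floxed and Wnt1Cre drives recombination in the neural crest, the source of the tooth mesenchyme. The control carries 1 floxed allele and its label names no Cre, so Cre itself and Bmp4 loss cannot be told apart. Each of the 4 libraries (mutant upper, mutant lower, control upper and control lower molar) came from laser-captured tissue, and the series text describes pooling of 3 pairs of control and mutant samples for RNA. There is 1 library per genotype and molar.

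Epithelial sheets are built on keratin filaments, which pair a type I with a type II keratin. Krt5 and Krt14 form the pair of basal, layered epithelium, and Krt8 and Krt18 that of simple epithelium. Cdh1 (E-cadherin) and Epcam are adhesion proteins of the epithelial cell surface, Trp63 is the transcription factor that maintains layered epithelium, and Shh is the hedgehog ligand made in the tooth by the epithelium and its signalling centre, the enamel knot, and read by the mesenchyme underneath.

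The libraries held about 4815610 to 5545320 reads on annotated transcripts. Values are FPKM, which is scaled for transcript length and mapped reads, summed over the transcripts of a gene. Differences between groups were taken after a log2(FPKM + 1) transform, so that changes of weak genes are understated. The targeted gene Bmp4 had 4.75 and 4.90 FPKM in mutant upper and lower molars, against 24.8 and 27.2 FPKM in the controls (limma log2 difference -2.21 ± 0.11, SE, adjusted p = 0.0008). The limma adjusted p was 0.44 with no filter on low values, 0.062 without the control upper and 0.063 without the control lower library, and under 0.05 in the other 7 of 10 alternatives. All 19 listed tooth mesenchyme genes averaged 1 FPKM or more, and 18 of them 10 FPKM or more.

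Epithelial transcripts were present at low levels in every capture, and the 8 markers fell into distinct tiers. Krt5 was the highest, with a mean over the 4 libraries of 6.30 ± 1.18 FPKM (SD, n = 4), which placed it at percentile 80.1 of all listed genes. Krt14 followed with 3.13 ± 1.08 FPKM and Trp63 with 2.20 ± 0.60 FPKM, whose ranges overlapped. Epcam averaged 0.70 ± 0.35 FPKM and Krt18 0.64 ± 0.21 FPKM, and their ranges also overlapped. Cdh1, at 0.123 ± 0.032 FPKM, and Krt8, at 0.108 ± 0.040 FPKM, could not be ordered, and Shh was at 0 in 3 of the 4 libraries. Between the other neighbours in this order the ranges over libraries were apart, for Krt8 and Shh on few reads (SD, n = 4 throughout).

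**Figure D1:**
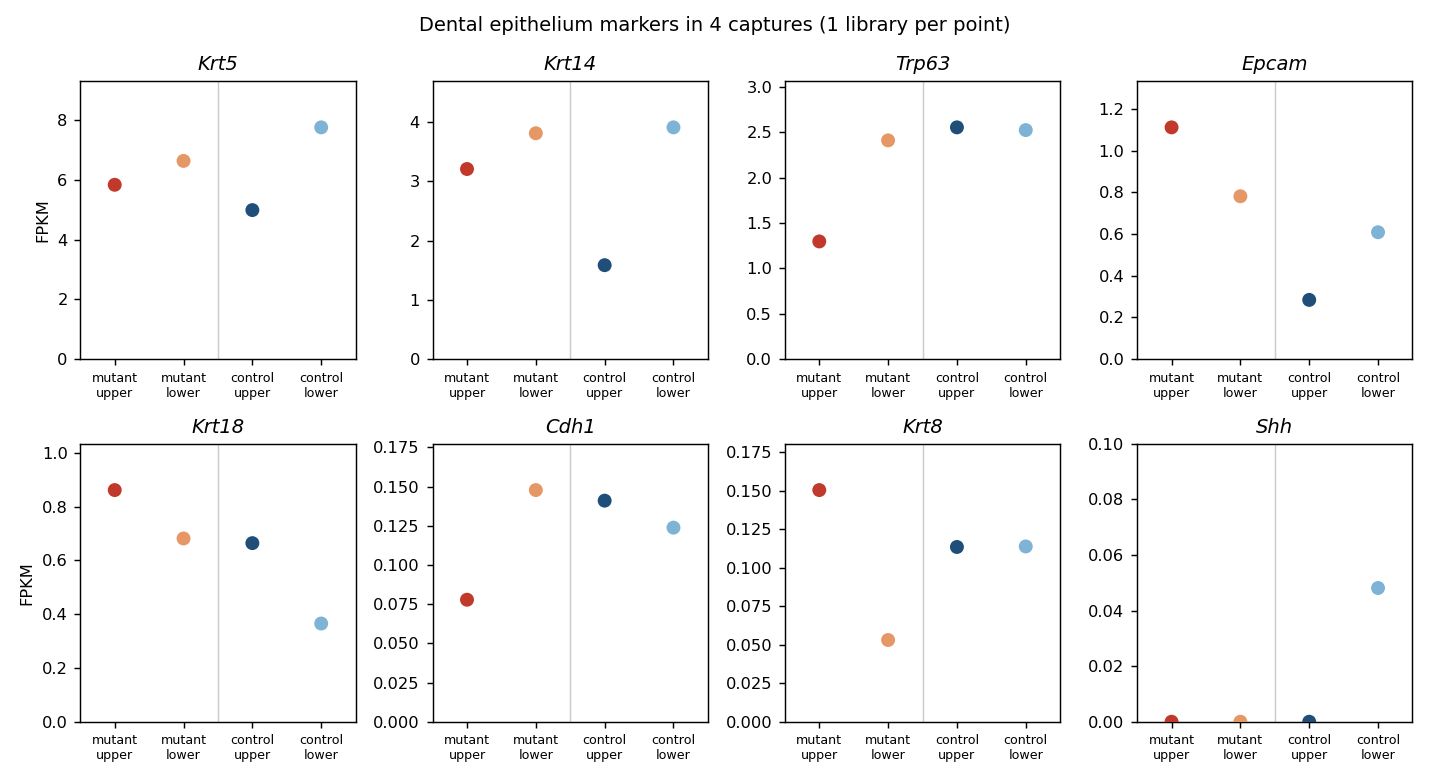
FPKM of each of the 8 markers (vertical axis, own scale per gene) in the mutant upper, mutant lower, control upper and control lower molar library, 1 point per library. Krt5 lay between 4.98 and 7.75 FPKM and Shh was above 0 only in the control lower library, and the control upper library was the lowest of the 4 for Krt5, Krt14 and Epcam.

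Krt5 (chromosome 15, 101537501 to 101543322, mm9), the type II keratin of basal cells, had 5.83 and 6.63 FPKM in mutant upper and lower molars, against 4.98 and 7.75 FPKM in the controls. The control libraries enclosed both mutant libraries. Its log2 difference, mutant minus control, was 0.19 for the upper molar and -0.20 for the lower. Over both molars limma, fitted on 10502 genes with genotype and molar as terms, gave -0.0036 ± 0.13 (log2, SE, adjusted p = 0.99). About 143 to 221 reads stood behind each value, the most of any of the 8 markers.

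Krt14 (chromosome 11, 100064476 to 100068824), the type I partner of Krt5, had 3.21 and 3.81 FPKM in mutant upper and lower molars, against 1.58 and 3.91 FPKM in the controls. A single library stood out, the control upper molar, and the other 3 lay close together. The log2 difference was 0.70 for the upper molar and -0.03 for the lower. limma gave 0.34 ± 0.18 over both molars (log2, SE, adjusted p = 0.50), and -0.13 without the control upper library and the term for molar. The Krt5 level was 1.82 and 1.74 times that of Krt14 in mutant upper and lower molars, against 3.15 and 1.98 times in the controls.

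Trp63 (chromosome 16, 25683851 to 25892174) had 1.30 and 2.41 FPKM in mutant upper and lower molars, against 2.56 and 2.53 FPKM in the controls. Here the low library was the mutant upper molar, and both mutant libraries lay under both controls. The log2 difference was -0.63 for the upper molar and -0.05 for the lower, and limma gave -0.34 ± 0.17 over both (log2, SE, adjusted p = 0.46), or -0.05 without the mutant upper library and the term for molar. In the upper molar Krt14 and Trp63 thus differed in opposite directions between the same libraries.

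Trp63 is known to be transcribed from an upstream start, which gives the TA isoforms, and from an internal start, which gives the shorter delta N isoforms typical of basal epithelium. The deposited tables list 3 transcripts that begin at position 25683851 and 5 that begin at 25802002, 118151 bases downstream. Transcripts from the internal start held 1.17 and 2.41 FPKM in mutant upper and lower molars, against 2.34 and 2.53 FPKM in the controls. They made up 90.1% of Trp63 in the mutant upper molar, against 91.6% in the control upper molar, and 100% in both lower molar libraries. The upstream transcripts had 0.128 FPKM in the mutant upper molar, against 0.214 FPKM in the control upper molar, and were at or near 0 in the lower molars. These shares depend on how the authors' estimate divided reads among 8 overlapping transcripts.

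**Figure D2:**
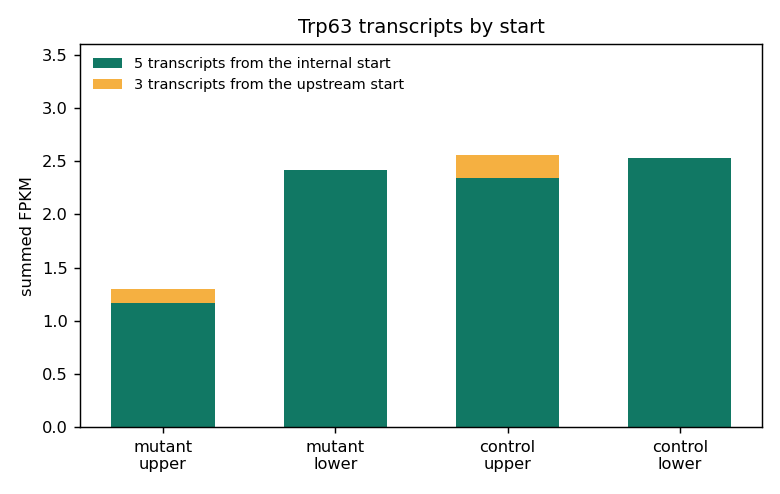
Summed FPKM of Trp63 transcripts (vertical axis) in each of the 4 libraries, as stacked bars for the 5 transcripts from the internal start and the 3 from the upstream start. The internal start held most of the signal in every library, and the mutant upper bar, 1.30 FPKM in all, is the lowest.

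Epcam (chromosome 17, 88035319 to 88050467), an adhesion protein of most epithelia, had 1.11 and 0.78 FPKM in mutant upper and lower molars, against 0.28 and 0.61 FPKM in the controls. Both mutant libraries were above both controls. The log2 difference was 0.72 for the upper molar and 0.15 for the lower, on about 34 reads in the mutant upper molar, against 8 in the control upper molar. Its mean was under 1 FPKM, so it was not in the fit of 10502 genes, and without that filter limma gave an adjusted p of 0.61 over 16973 genes. That unfiltered fit called 0 genes and gave Bmp4 itself a limma adjusted p of 0.44, so it could not decide on Epcam.

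Cdh1 (chromosome 8, 109127268 to 109194146), the cadherin of epithelial junctions, had 0.078 and 0.148 FPKM in mutant upper and lower molars, against 0.141 and 0.124 FPKM in the controls. The low-level steps of its deposited coverage fitted 5 and 9 whole reads in the mutants and 8 and 7 in the controls, within 0.1 read. The groups overlapped, and so few reads could not show a difference. Cadherins of mesenchyme, named here after their values were seen, were far higher: Cdh11 was between 62.3 and 84.2 FPKM, and Cdh2 had 15.7 and 13.0 FPKM in the mutants, against 7.99 and 10.1 FPKM in the controls (limma adjusted p = 0.17 for Cdh2). Krt5 exceeded Cdh1 by between 35.3 and 74.9 times in the same libraries, per length.

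The simple epithelial keratins both averaged under 1 FPKM. Krt18 (chromosome 15, 101858647 to 101862457) had 0.86 and 0.68 FPKM in mutant upper and lower molars, against 0.66 and 0.37 FPKM in the controls. The mutant libraries were both above the controls, although the mutant lower exceeded the control upper library by little. Its partner Krt8 (chromosome 15, 101827142 to 101834773) had 0.150 and 0.053 FPKM in the mutants, against 0.113 and 0.114 FPKM in the controls. The steps of its coverage stood as 3 to 1 in the mutants and 2 to 2 in the controls, or at most about 4 reads in a library at 44.2 bases each, so no difference was detectable. Krt18 thus exceeded Krt8, with which it pairs in the cell, by between 3.21 and 12.9 times.

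Shh (chromosome 5, 28783380 to 28793641) was listed at 0 in the mutant upper, mutant lower and control upper libraries and at 0.048 FPKM in the control lower library, which corresponds to about 2 reads. At its transcript length 3 reads amount to 0.076 to 0.086 FPKM, depending on the library, and all 4 values lay under that limit. The table also lists 9530036O11Rik, annotated in GENCODE as antisense, across the same locus, and without strand the reads of both cannot be told apart. The receptor and target gene Ptch1 was nevertheless well expressed, at 27.5 and 24.8 FPKM in mutant upper and lower molars, against 76.0 and 49.7 FPKM in the controls, and it fell by 1.21 ± 0.13 (log2, SE, limma adjusted p = 0.022). Gli1, a transcription factor induced by the pathway, fell by 0.82 ± 0.11 (log2, SE, limma adjusted p = 0.036). Of 11 hedgehog receptors, transducers and targets, 10 were tested, and these 2 were called lower, beside 0.457% of all tested genes, and 0 higher. The list was chosen with earlier results of these data known, so its counts and medians are a description and no test of the pathway. Cdon, a co-receptor named after its values were seen, had 10.4 and 10.9 FPKM in the mutants, against 5.97 and 7.50 FPKM in the controls (limma adjusted p = 0.099). Both calls ended under most alternatives: Ptch1 kept an adjusted p under 0.05 in 3 of 10 (limma adjusted p = 0.006 to 0.88) and Gli1 in 2 of 10 (0.013 to 0.98), with every estimate below 0. The list's median difference was -0.21 for the upper molar and -0.20 for the lower, beside 0.02 and -0.05 over all 10502 tested genes. The ligand itself was too scarce in these captures to be compared.

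Promoter windows are shown for 3 of the markers that occupy different tiers, Krt5 as the highest, Epcam as intermediate and Krt8 as nearly absent. They span 250 bases before to 50 after the start annotated by RefSeq on GRCm38.p6, and 5 of the 8 markers matched the table. Krt5 lies at chr15:101712856-101713155 on the minus strand, Epcam at chr17:87635729-87636028 on the plus strand and Krt8 at chr15:102004293-102004592 on the minus strand. The RefSeq start used for Krt8 lies 140 bases downstream of the principal GENCODE start, and that for Krt14, not shown, 1518 bases downstream, so these windows may not centre on the main start. Capitals mark the E-box CACCTG, or CAGGTG where it lies on the other strand, the sequence that repressors of the Snail and Zeb families are known to bind at epithelial genes.
Krt5: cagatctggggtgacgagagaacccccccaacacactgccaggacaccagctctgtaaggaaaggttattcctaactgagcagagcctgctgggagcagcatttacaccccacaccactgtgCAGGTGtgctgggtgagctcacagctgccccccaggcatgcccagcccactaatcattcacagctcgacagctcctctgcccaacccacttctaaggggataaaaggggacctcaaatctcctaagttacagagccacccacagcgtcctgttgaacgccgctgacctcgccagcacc
Epcam: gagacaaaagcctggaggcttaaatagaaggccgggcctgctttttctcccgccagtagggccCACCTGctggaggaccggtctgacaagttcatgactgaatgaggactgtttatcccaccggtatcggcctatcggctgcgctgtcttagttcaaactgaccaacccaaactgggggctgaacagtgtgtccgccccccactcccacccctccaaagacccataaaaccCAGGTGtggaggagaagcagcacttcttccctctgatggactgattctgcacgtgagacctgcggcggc
Krt8: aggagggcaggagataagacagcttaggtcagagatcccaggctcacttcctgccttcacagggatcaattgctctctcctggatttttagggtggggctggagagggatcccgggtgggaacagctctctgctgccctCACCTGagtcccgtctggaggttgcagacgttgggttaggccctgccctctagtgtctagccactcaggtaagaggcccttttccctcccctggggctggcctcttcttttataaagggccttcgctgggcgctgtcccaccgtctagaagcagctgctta

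The Krt5, Krt8 and Krt18 windows hold 1 such E-box each, the Epcam window holds 2 and the Krt14 window 0, so that 4 of the 5 windows hold at least 1, beside 20.2% of all 32851 promoter windows that do. Of the repressors, chosen for mention after their values were seen, Snai2 had 21.1 and 18.7 FPKM in mutant upper and lower molars, against 23.7 and 23.4 FPKM in the controls. Zeb2 had 12.1 and 21.3 FPKM in the mutants, against 23.4 and 26.8 FPKM in the controls (limma adjusted p = 0.18). Zeb1 had 7.33 and 6.95 FPKM in the mutants, against 6.85 and 6.11 FPKM in the controls (limma adjusted p = 0.68). Binding of these repressors to the windows, and any effect of theirs on the markers, was not tested.

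Summed over all 8 markers, the mutant captures lay within the range of the controls. The sum was 12.5 and 14.5 FPKM in mutant upper and lower molars, against 10.3 and 15.4 FPKM in the controls. Krt5, Krt14 and Trp63 averaged 6.30, 3.13 and 2.20 FPKM over the 4 libraries and each other marker under 1 FPKM. The sum thus mostly follows Krt5, Krt14 and Trp63, and a difference in a weak marker such as Epcam hardly shows in it. An exact two-sided permutation test over the 4 libraries gave p = 1, where 0.333 is the smallest it can give. In bulk tissue, fewer epithelial cells and less RNA per cell cannot be told apart. For comparison, the 19 tooth mesenchyme genes summed to 1330 and 1354 FPKM in the mutants and 1225 and 1262 FPKM in the controls.

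The count of markers that separated the genotypes was near that of any gene. Mutant and control libraries did not overlap for 3 of the 8 markers, with Epcam and Krt18 higher and Trp63 lower in the mutants, beside 37.0% of 16973 genes above 0 in at least 1 library. Of the 3 markers tested (Krt5, Krt14 and Trp63), limma called 0 for genotype at an adjusted p under 0.05, beside 0.800% of 10502 genes. At an unadjusted limma p under 0.05 there were 0 of the 3, beside 1386 of the 10502 genes. The fit leaves 1 residual degree of freedom, against 5.77 prior degrees of freedom that limma borrowed from all tested genes. Its p-values thus rest mostly on a spread shared across genes, and less on each gene's own disagreement between molars. They do not measure the spread between embryos, and a p that misses the threshold does not show that levels were alike. At least 2-fold on the log2(FPKM + 1) scale was reached by 0 of the 3 tested markers in the upper molar, beside 1.01% of tested genes, and by 0 in the lower molar, beside 1.10%. Krt18, Cdh1, Krt8 and Shh, all under 1 FPKM in every library, could not have reached it on that scale.

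Approximate reads give counting intervals for 6 of the markers, those with at least 10 reads in a pair of libraries. Such an interval compares those libraries, not the genotypes, and amplified reads are not independent molecules. In the upper molar the ratio of mutant to control was 2.02 for Krt14 (95% interval 1.32 to 3.05), 3.92 for Epcam (1.70 to 9.37) and 0.53 for Trp63 (0.36 to 0.74). These 3 of 6 intervals excluded 1, beside 28.1% of all genes with that many reads. The Krt5 ratio in the upper molar was 1.17 (0.94 to 1.47). In the lower molar 0 of the 6 intervals excluded 1, beside 29.9% of genes, and the Krt14 ratio there was 0.97 (0.71 to 1.32). Among these markers, intervals that excluded 1 thus occurred only in the upper molar pair and lay on both sides of 1.

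**Figure D3:**
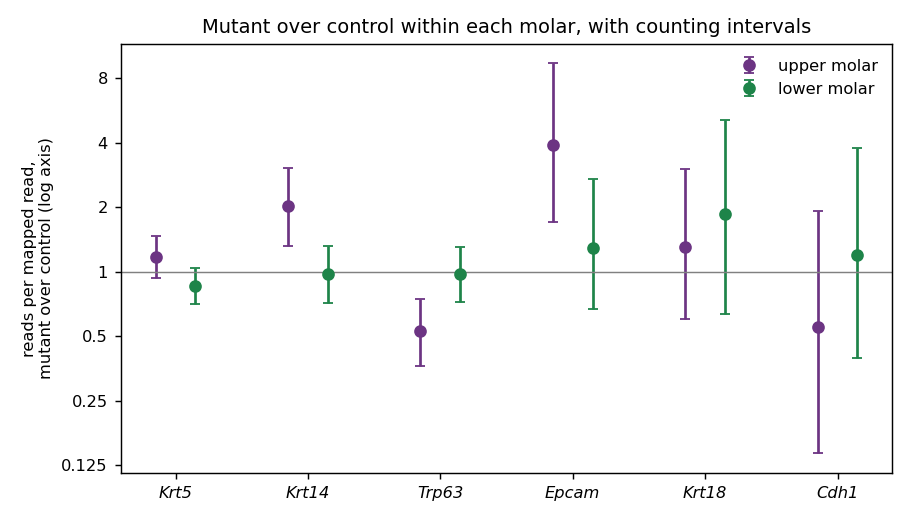
Ratio of reads per mapped read, mutant over control (vertical log axis), for 6 markers in the upper and lower molar, with exact 95% counting intervals as bars and a line at 1. Krt14 at 2.02, Epcam at 3.92 and Trp63 at 0.53 in the upper molar have bars that do not reach 1, while every lower molar bar crosses it.

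The second factor of the design was the jaw. Krt14 and Krt5 were the 2 markers higher in the lower than in the upper molar in both genotypes. Krt14 differed by 0.19 in mutants and 0.93 in controls, and Krt5 by 0.16 and 0.55 (log2, lower minus upper). limma gave 0.56 ± 0.18 for Krt14 and 0.35 ± 0.13 for Krt5 over both genotypes (log2, SE, adjusted p = 0.35 and 0.42). Trp63 gave 0.28 ± 0.17 (adjusted p = 0.67), with 0.57 in mutants and -0.01 in controls. Of the 3 tested markers 0 were called, beside 0.724% of genes, and 2 had an unadjusted limma p under 0.05, beside 10.2% of genes. Most of the Krt14 and Krt5 difference lay between the control libraries.

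The wider keratin family placed the markers in context. Of 47 listed keratin genes, 30 were at 0 in all libraries and 4 had a mean of at least 1 FPKM, namely Krt5, Krt14, Krt17 and Krt10. Krt5 and Krt14 together made up 62.8% and 62.5% of summed keratin FPKM in mutant upper and lower molars, against 55.5% and 72.6% in the controls. Krt17, a type I keratin of activated and appendage epithelium, had 1.53 and 1.98 FPKM in the mutants, against 1.04 and 1.06 FPKM in the controls. Krt10, a keratin of differentiating layers, had 0.99 and 0.83 FPKM in the mutants, against 1.18 and 1.14 FPKM in the controls. Krt15, another basal type I keratin, had 0.80 and 0.98 FPKM in the mutants, against 0.85 and 0.69 FPKM in the controls. Near-identical copies limit single keratins: 21.3% of the 40-base stretches of the Krt14 transcript also occur in other GENCODE genes (Krt16, Krt17 and Krt42), 13.6% of those of Krt5 (Krt6a foremost) and 32.4% of those of Krt8 (Krt8-ps foremost), while Epcam and Trp63 shared 0.

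Other epithelial genes were also scarce. Of 34 junction, basement membrane and surface genes, 29 were under 1 FPKM in every library, and of 15 epithelial transcription and splicing factors 14 were. The exceptions that passed 1 FPKM on average were Jup and Itga6 in the first list, both of which other tissues also use, and Klf5 in the second. Jup, a plakoglobin of junctions and desmosomes, had 4.75 and 4.68 FPKM in the mutants, against 5.06 and 4.79 FPKM in the controls. Itga6 had 4.81 and 3.96 FPKM in the mutants, against 5.11 and 4.14 FPKM in the controls. The first list summed to 16.1 and 15.7 FPKM in mutant upper and lower molars, against 16.01 and 16.8 FPKM in the controls, and the second to 4.13 and 6.29 FPKM, against 3.29 and 4.57 FPKM. Jup and Itga6 held a large part of the first sum in every library, so that sum is not a measure of epithelium alone. Median differences were -0.01 and -0.02 for the first and 0.00 and 0.04 for the second in the upper and lower molar, beside 0.00 and -0.01 over the 16973 genes above 0 in at least 1 library. For genotype limma called 0 of the 2 and 0 of the 1 gene tested in these lists. At an unadjusted limma p under 0.05 there were also 0, beside 1386 of 10502 tested genes.

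Tooth placode and enamel knot genes, from the sites where Shh is made, were mostly scarce as well, with a median of 0.08 FPKM. Of the 16, 12 were under 1 FPKM in every library, and Fgf8 and Fgf20, epithelial growth factors of the early tooth, were listed at 0 throughout. Bmp2, a ligand of the enamel knot and later of mesenchyme, had 0.64 and 2.41 FPKM in the mutants, against 0.60 and 1.30 FPKM in the controls. limma called 0 of the 2 tested genes of this list for genotype.

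**Figure D4:**
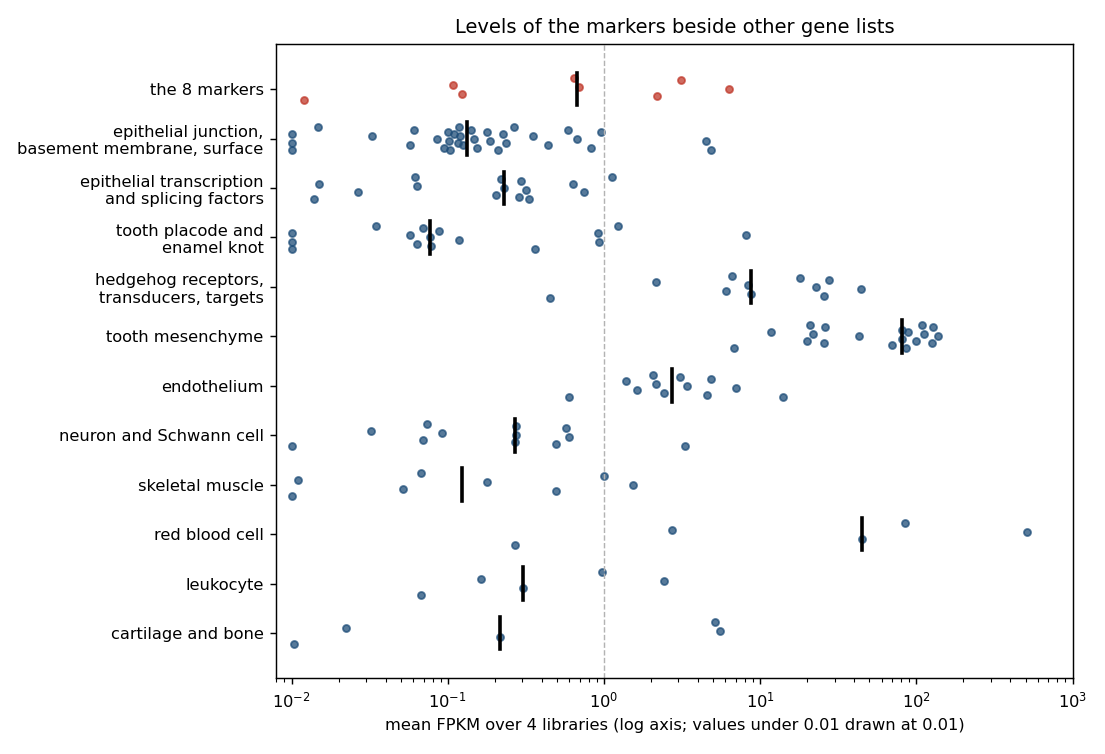
Mean FPKM over the 4 libraries (horizontal log axis, values under 0.01 drawn at 0.01) of each gene in 12 lists, 1 point per gene, with a black bar at the list's median and a dashed line at 1 FPKM. The 8 markers have a median of 0.67 FPKM and the other 3 epithelial lists medians of 0.13, 0.23 and 0.08 FPKM, against 80.9 FPKM for tooth mesenchyme and 2.74 FPKM for endothelium.

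Markers of further cell types were read in the same way. The 12 endothelial genes summed to 38.3 and 45.9 FPKM in mutant upper and lower molars, against 54.6 and 49.5 FPKM in the controls. These sums lay above that of the 8 markers in every capture, but over more genes. Of the 12, 0 were higher in the mutant in both molars and 7 lower, beside 24.0% and 29.0% of the 16973 genes above 0 in at least 1 library. Red blood cell genes summed to between 585 and 729 FPKM. Neuron and Schwann cell genes summed to 8.77 and 7.39 FPKM in the mutants, against 3.09 and 4.93 FPKM in the controls. Nefl, a neurofilament gene of that list, had 6.89 and 4.15 FPKM in the mutants, against 0.632 and 1.52 FPKM in the controls (limma adjusted p = 0.057), and without it the list summed to 1.88 and 3.24 FPKM in the mutants, against 2.46 and 3.41 FPKM in the controls. In that list 4 genes were higher in the mutant in both molars and 4 lower. Muscle genes summed to between 3.04 and 3.57 FPKM. Leukocyte genes summed to 3.88 and 5.40 FPKM in the mutants, against 3.13 and 3.28 FPKM in the controls. Cartilage and bone genes summed to 6.12 and 10.5 FPKM in the mutants, against 13.2 and 13.8 FPKM in the controls. Without Sp7, a transcription factor of bone-forming cells, the cartilage and bone list summed to 4.20 and 6.26 FPKM in the mutants, against 4.33 and 6.77 FPKM in the controls. Nefl and Sp7 were singled out after their values were seen. For none of these lists did limma call a gene for genotype, beside 0.800% of all tested genes. An unadjusted limma p under 0.05 was reached by 2 of 11 tested endothelial genes and 1 of 2 cartilage and bone genes. It was also reached by the 1 tested neuron and Schwann cell gene and the 1 tested leukocyte gene. Of the 1 muscle and 4 red blood cell genes tested, 0 reached it, and over all tested genes 1386 of 10502 did. The part of these cell types in the marker values was not tested.

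Genes whose pattern over the 4 libraries was most like the mean of Krt5, Krt14 and Trp63 were found among 2026 genes that spanned at least 0.5 (log2). They were Rcor2, Mettl10, Pxk, Cyp20a1 and Nudt6, with root mean square distances between 0.017 and 0.050 (log2, centred, 4 libraries). Rcor2, a corepressor, had 4.54 and 5.70 FPKM in mutant upper and lower molars, against 4.10 and 6.33 FPKM in the controls. In the upper molar Krt14 and Trp63 differed by 0.70 and -0.63 (log2, mutant minus control), which their mean largely cancels. The likeness is therefore to that mean and not to each marker. With 4 libraries such likeness is a description of these values.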

How the data were processed

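RNA sequencing measured gene expression in 4 libraries of laser-captured molar mesenchyme. Per the labels' protocols, RNA was extracted with the RNeasy Micro Kit, cDNA was made with NuGEN Ovation RNA-Seq v2 and libraries with an Illumina Nextera kit. TopHat 1.4.1 and Bowtie 0.12.7 with the build mm9 are named in the submitters' processing notes. Whether counting used strand, and how multiply aligned reads were handled, is not given in the sources used here. The deposited FPKM and coverage signal are the authors' values per RefSeq transcript, per the file headers, and transcript length (another deposited column) is in bases. No transcript of the 8 markers had a failed or low-data status.

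FPKM was summed per gene. Coverage times length, divided by the 44.2 bases typical of single reads, gave approximate reads. Starts were counted from 1. limma 3.58.1 in R 4.3.3 was fitted on log2(FPKM + 1), with genotype and molar as terms and an intensity trend, for genes that averaged 1 FPKM or more, two-sided, with Benjamini-Hochberg adjustment at 0.05, and was tested on simulated data. The simulated noise was drawn from the spread of this same fit, so it could not check that spread. Counting intervals were exact (Clopper-Pearson, 95%) from approximate reads scaled to mapped reads. Within a molar no test is possible with 1 library per genotype. The members and gene lists were chosen with earlier results of these data known. Named genes were the 8 markers, Bmp4, Ptch1, Gli1, list and keratin genes of highest mean or called by limma, shown where a result turned on them, and the 5 nearest profiles. One gene the rule names is not reported here. Alternatives changed the pseudocount, filter, scaling, trend, model terms, short transcripts and libraries.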

Additional observations from a re-analysis of the deposited data

Results flagged for a closer look

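For 6 of the 8 markers, the difference between genotypes pointed in opposite directions in the molars, or that between jaws did in the genotypes, as they did for 55.2% of the 16973 genes above 0 in at least 1 library. With 1 library per group these differences of differences were not tested. Krt14 differed by 0.70 for the upper molar and -0.03 for the lower (log2, mutant minus control), so its lower effect minus its upper effect was -0.73, and for Krt5 this was -0.39. Trp63 gave 0.58 and Epcam -0.57, with Trp63 lowest in the mutant upper library and Epcam in the control upper library. Krt8 gave -0.13 and Cdh1 0.11, on about 4 reads or fewer for Krt8 and 9 or fewer for Cdh1 in any library.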

How the results depend on the processing

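limma called 0 of the 8 markers under any of 70 marker and setting combinations (lowest adjusted p = 0.23). In 34 of them the estimate itself did not move, and of the other 36, 5 changed direction. Without a filter 0 genes of any kind were called. Markers under the filter were fitted only without it. The Krt5 difference between genotypes became 0.015 after rescaling by median ratios. With 1 library left out, which left no room for the term of the other factor and assumed that a lone library varied like the rest, limma gave ranges for mutant minus control of -0.13 to 0.80 for Krt14, -0.28 to 0.27 for Krt5 and -0.62 to -0.05 for Trp63, and for lower minus upper molar of -0.036 (without the mutant upper library) to 0.59 for Trp63. The difference in summed marker FPKM, 0.64 higher in the mutants, was 0.39 without Krt8 and Krt18, 0.87 after rescaling and between -1.92 (without the control upper library) and 3.20 (without the control lower library) with 1 library left out.

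Counts over all genes moved more. For genotype limma called 84 genes, against 0 without a filter (where 1398 had an unadjusted p under 0.05), 15 after rescaling, 38 without an intensity trend, 133 without transcripts under 0.3 kb, 7 without a term for the molar and 5 to 22 with 1 library left out. For the jaw it called 76, against 0 without a filter (1225 at an unadjusted p under 0.05), 139 without short transcripts, 12 without a term for genotype and 2 to 30 with 1 library left out. Genes at least 2-fold apart numbered 106 for the upper molar and 115 for the lower, against 223 and 249 with a pseudocount of 0.1, and 175 in the lower molar without a filter. The cause was not tested. No paired analysis of embryos was possible, because there is 1 library per genotype and molar. The term for molar already sets genotypes side by side within a molar. Krt8 had about 4 reads or fewer and Shh 2 or fewer in each library.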
